A study of Mus musculus with 32 samples.

Results

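The mouse immunoglobulin heavy chain locus carries 8 constant genes, and the 6 described here are Ighm, Ighd, Ighg3, Ighg2b, Ighg2c and Igha. They were chosen by symbol, with no cutoff on a measured value but with earlier results of these data known. They are 6 of 43345 mouse genes in the count tables. The remaining constant genes, Ighg1 and Ighe, are given only where a value of theirs stands beside a member's. All 6 members passed the filter on low counts in both cell systems.

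RNA was sequenced in 32 libraries of mouse B cells grown with or without ELOF1, an elongation factor of RNA polymerase II. CH12F3, an established line from a mouse B cell lymphoma, carries IgM and can be brought to switch to IgA in culture. All CH12F3 libraries carried the Elof1 knockout (Elof1-KO), to which either ELOF1 (+ELOF1, here the ELOF1 libraries) or a vector (+Vector, here the vector libraries) had been added. Every CH12F3 culture received α-CD40, IL4 and TGF-β, for 1.5 days (4 libraries of each genotype), 3 days (2 of each) or 7 days (2 of each). Spleen B cells were Elof1-cKO (cKO) or wild-type (WT) and received IL4 and LPS for 2.5 days (5 of each) or 3.5 days (3 of each). The number of CH12F3 clones, the driver of the conditional knockout, and the mice's strain, age and number were not given in the sources used. The labels do not say that replicates came from separate cultures or mice, so p-values measure only the spread between these libraries, which may be technical.

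A naive B cell makes IgM and IgD from one primary transcript that runs through the μ and δ exons and is spliced or ended in alternative ways. In class switch recombination DNA is broken in the repetitive switch regions, and the μ exons are replaced by those of a downstream γ, ε or α gene. Before a gene is switched to, a germline transcript starts at a promoter ahead of its switch region and runs through its constant exons. The cytokine sets the target: IL-4 induces γ1 and ε germline transcripts, LPS alone γ3 and γ2b, TGF-β α and γ2b, and interferon-γ γ2c (called γ2a in some strains).

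In mm10 the members lie on the minus strand of chromosome 12, in the order of transcription. Ighm (ENSMUSG00000076617, the μ chain) spans chr12:113418558-113422730 and Ighd (ENSMUSG00000104213, the δ chain) spans chr12:113406604-113416324, starting 6.4 kb further on. Ighg3 (ENSMUSG00000076615, chr12:113359575-113361232) starts 61.5 kb from the Ighm start, Ighg2b (ENSMUSG00000076613, chr12:113302965-113307933) 114.8 kb, Ighg2c (ENSMUSG00000076612, chr12:113285325-113288932) 133.8 kb and Igha (ENSMUSG00000095079, chr12:113254830-113260236) 162.5 kb. The counted models hold exons of the constant regions and none of the upstream exons of germline transcripts. A read in them can therefore come from a germline transcript, a rearranged V-D-J transcript or, for δ, read-through from μ, and the counts do not separate these. Nor do they separate membrane from secreted forms. For Ighg3, 4 of 6 annotated exons were counted, which gave 1082 bases.

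The γ genes are close copies of each other, which matters for how reads were assigned. The first 90 bases of the CH1 exon, which opens each γ constant region, are shown for the γ members and Ighg1. They come from the transcript sequences of GENCODE release M21, whose annotation is on mm10, and read 5′ to 3′ as in the transcript. Capitals mark bases that differ from Ighg2c, of which there are 18 in Ighg3, 18 in Ighg1 and 7 in Ighg2b. In order they lie at chr12:113361143-113361232, chr12:113330434-113330523, chr12:113307844-113307933 and chr12:113288843-113288932.
Ighg3: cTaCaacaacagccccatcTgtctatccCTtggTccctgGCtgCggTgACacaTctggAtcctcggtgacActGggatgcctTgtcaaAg
Ighg1: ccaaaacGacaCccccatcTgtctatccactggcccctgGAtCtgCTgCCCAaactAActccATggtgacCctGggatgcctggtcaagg
Ighg2b: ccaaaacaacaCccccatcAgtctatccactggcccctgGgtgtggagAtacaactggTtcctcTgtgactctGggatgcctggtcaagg
Ighg2c: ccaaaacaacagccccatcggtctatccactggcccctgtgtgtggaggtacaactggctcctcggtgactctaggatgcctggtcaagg

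Over the 291-base CH1 exon the γ genes were 78.4% to 88.3% identical. Of the runs of 50 bases in annotated exons, 1.58% in Ighg3, 4.15% in Ighg2b and 5.49% in Ighg2c also occurred in another γ gene, and none did in Ighm, Ighd or Igha. No run of 100 bases was shared. The sources used do not give how reads mapping to several places were treated, so how much of the γ counts is uncertain between these genes is not known. In Ighg1, 0.393% of the runs of 50 bases also occurred in another γ gene. In spleen libraries Ighg2b counts were 3.84% to 8.32% of Ighg1 counts, and the part of Ighg1 reads in them was not tested.

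Mouse counts were 7112130 to 16359477 per library (median 11917725), and Drosophila spike-in counts were 2.15% to 8.39% of them. Elof1 was 139.6 to 681 CPM (read counts scaled to a common depth with TMM) in ELOF1 libraries against 0.966 to 5.49 CPM in vector libraries, and 10.99 to 55.1 CPM in WT against 1.27 to 7.65 CPM in cKO libraries, with no overlap. The library numbers in the labels fall into 2 separate runs. The first run, of the lower numbers, holds libraries 1 and 2 of each genotype at CH12F3 day 1.5 and libraries 4 and 5 of each genotype at spleen day 2.5. All 8 B cell markers were detected in every group. The spleen libraries numbered 5 had the highest Igha of day 2.5 in both genotypes, and cKO library 5 the highest Ighg2c of the cKO libraries, though neither gap passed Dixon's test on log2 CPM. Genotype differences without these libraries are given where a call or a direction changed. Leaving out both libraries numbered 5 was chosen after these values had been seen, so p-values in that setting are not independent of them. In bulk RNA, fewer cells of a type and less RNA per cell cannot be told apart.

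Levels of different genes are compared here as CPM per kb of counted exon. For Ighg3 that is 1082 of 2512 annotated bases, so its place in the order depends on this model. In CH12F3 cells Ighm and Igha stood far above the other constant genes in all 6 groups. Ighm was 1350 ± 325 CPM per kb in ELOF1 libraries at day 1.5 (SD, n = 4) and Igha was 612 ± 90.4, and in vector libraries they were 1070 ± 214.3 and 516 ± 74.0. The order of these genes turned in ELOF1 libraries at day 7, where Igha was 1191 ± 9.64 and Ighm 565 ± 465 CPM per kb (n = 2). At day 3 their ranges overlapped in ELOF1 libraries. In vector libraries Ighm stayed above Igha per kb on every day, at 1033 ± 261 against 665 ± 51.8 CPM per kb at day 7 (n = 2). The order of Ighm and Igha also depends on their counted lengths, 1886 and 2668 bases. Without regard to length, Igha counts were 73.0% and 117% of Ighm counts in vector libraries 1 and 2 at day 7. In ELOF1 libraries 1 and 2 at day 3 they were 78.2% and 196%. Next in order was Ighg3, at group means of 2.02 to 22.7 CPM per kb, and its range overlapped that of the gene below it in all 6 groups. The remaining constant genes had group means of 0.184 to 8.40 CPM per kb, with overlapping ranges between most neighbours, and Ighg2c was lowest in 5 of the 6 groups. In vector libraries at day 1.5 Ighd was lower than Ighg2c, with overlapping ranges.

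As a share of the summed constant-gene signal per kb, Ighm and Igha together made up nearly all of it in CH12F3 libraries. The Igha share in ELOF1 libraries was 31.6% ± 8.23 (SD, n = 4) at day 1.5, 46.6% ± 15.8 (n = 2) at day 3 and 69.99% ± 18.7 (n = 2) at day 7. In vector libraries it was 31.7% ± 1.05, 30.2% ± 2.30 and 39.0% ± 8.01 on the same days. ELOF1 library 2 at day 7 stood at the extreme, with 83.2% Igha and 16.4% Ighm. These shares are descriptions of each library and were not tested.

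**Figure D1:**
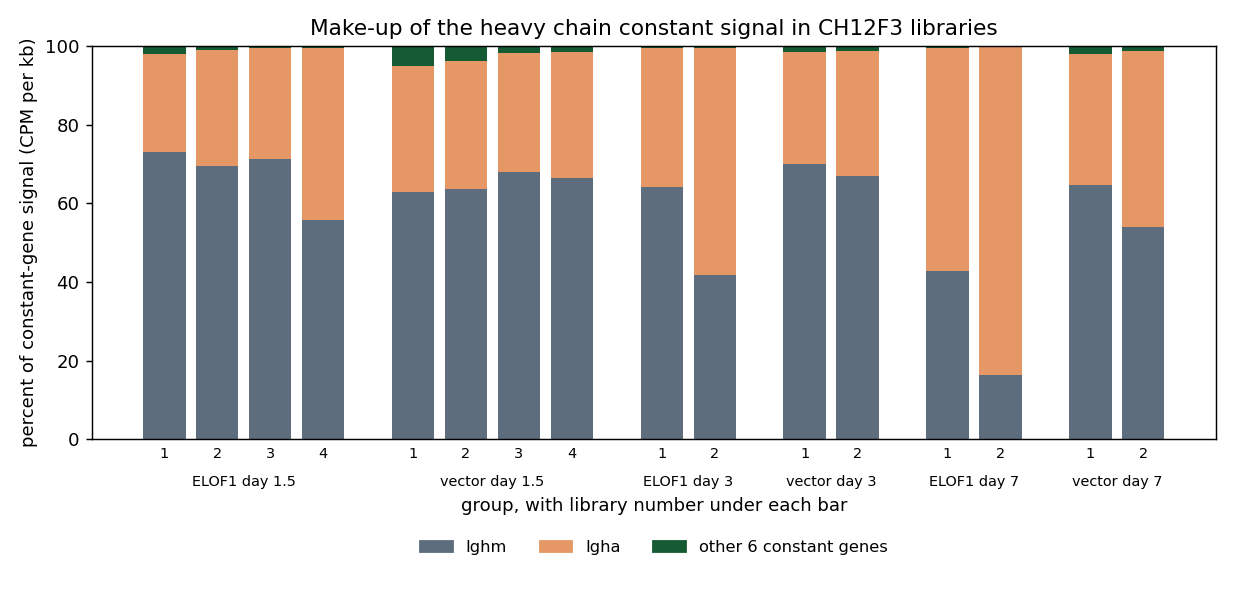
Share of the summed CPM per kb of the 8 constant genes (vertical axis, percent) taken by Ighm, by Igha and by the other constant genes, with 1 stacked bar per CH12F3 library, grouped by genotype and day. The Igha part is widest in the ELOF1 libraries of day 7, where library 2 reaches 83.2%.

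Spleen B cells had another order. Ighm was 2840 ± 473 CPM per kb in WT and 3473 ± 463 in cKO libraries at day 2.5 (SD, n = 5 each), and 5513 ± 2234 and 5548 ± 831 at day 3.5 (n = 3 each). Ighg1, the main target of IL-4, came next at group means of 178 to 1007 CPM per kb. Ighg3 followed among the members, at 50.9 ± 33.1 in WT and 25.9 ± 4.89 in cKO libraries at day 2.5, and 109 ± 35.8 and 42.7 ± 7.56 at day 3.5. Ighg2b and Ighd lay below it per kb, though the median CPM over the spleen libraries was 54.1 for Ighg2b and 41.6 for Ighg3. Ighg2b had group means of 9.62 to 48.8 CPM per kb and Ighd of 16.8 to 23.8. Ighd was above Ighg2b in cKO libraries at day 2.5 without overlap, and the ranges of Ighg2b and Ighd overlapped in WT libraries at day 2.5 and in cKO libraries at day 3.5. Ighg2c had group means of 2.92 to 23.3 CPM per kb, and Igha was lowest in all 4 groups at 1.63 to 2.27. The Ighm share of the constant-gene signal was 81.7% ± 3.30 in WT and 92.8% ± 0.855 in cKO libraries at day 2.5, and 80.3% ± 2.53 and 91.1% ± 0.323 at day 3.5. The shares of the genotypes did not overlap on either day. In the same sum Ighg1 was 487 CPM per kb in WT and 178 in cKO libraries at day 2.5, and 1007 and 403 at day 3.5. The CPM of Ighm itself overlapped between the genotypes on both days.

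Fold changes below are log2, ELOF1-deficient over ELOF1-proficient (vector over ELOF1, cKO over WT), from the quasi-likelihood test of edgeR over all genes of a system, each with its standard error (SE). Called means a Benjamini-Hochberg adjusted p below 0.05. At CH12F3 day 1.5, 0 of the 6 members were called, against 1.15% of the 14201 genes tested. At an unadjusted p below 0.05 there were 4, against 1904 of the 14201 genes, and DESeq2 called 1 (Ighg2b), against 3.4% of genes. A replicate block, which compares same-numbered libraries, gave 4 calls by edgeR (Ighg3, Ighg2b, Ighg2c and Igha), against 8.6% of genes. At day 3, 0 were called, against 0.00704% of genes, with 1 at an unadjusted p below 0.05 (590 of 14201 genes) and 0 by DESeq2 (0.105% of genes). At day 7, 0 were called, against 0.0352% of genes, with 4 at an unadjusted p below 0.05 (809 of 14201 genes) and 2 by DESeq2 (0.198% of genes), Igha and Ighd. At spleen day 2.5, 1 of 6 was called (Ighg2b, lower), against 5.18% of the 13367 genes tested, and DESeq2 called 2, against 8.19%. The replicate block gave 2 calls there (Ighg2b and Ighg2c), against 11.5% of genes, though libraries 1, 2 and 3 correlated more with another number. Leaving out both libraries numbered 5, chosen after seeing the data, gave 3, against 11.6%. At spleen day 3.5, 0 were called, against 2.07% of genes, with 3 at an unadjusted p below 0.05 (1808 of 13367 genes) and 2 by DESeq2 (4.24% of genes), and with the day 2.5 libraries numbered 5 left out there were 3, against 8.88%. Over the 6 members the median log2 fold change was 0.65, 0.53 and 1.41 at CH12F3 days 1.5, 3 and 7, against 0.01, 0 and 0.01 over all genes. At spleen days 2.5 and 3.5 it was -0.66 on both days, against 0 over all genes.

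**Figure D2:**
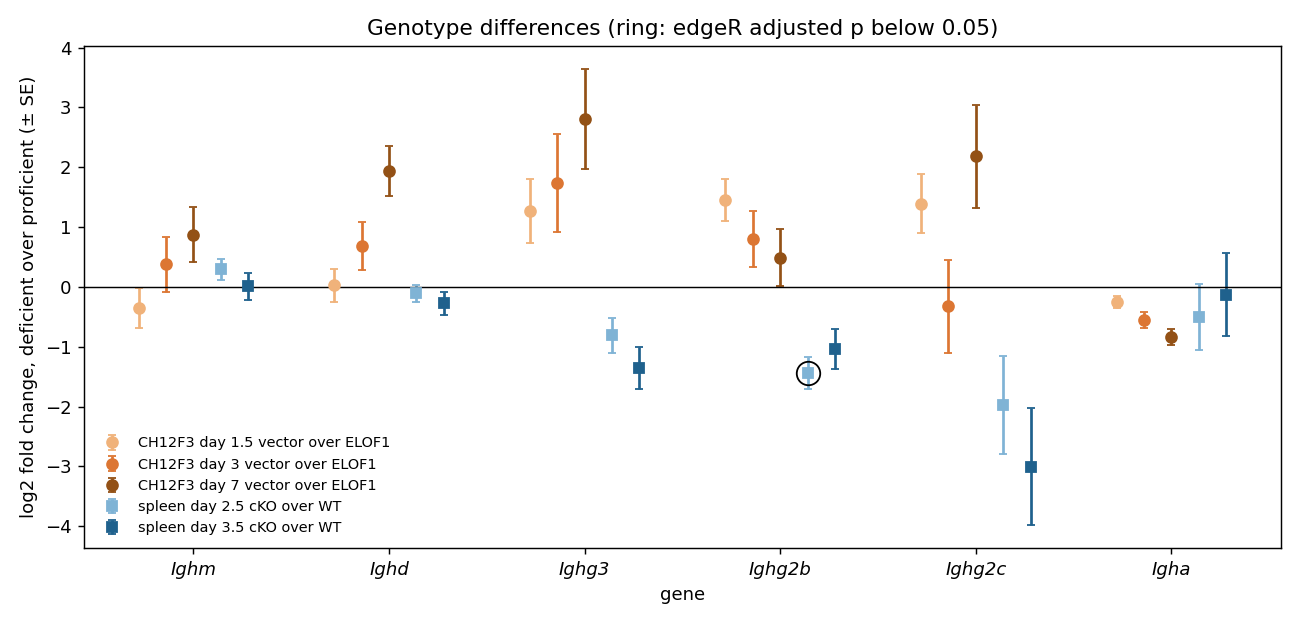
Log2 fold change, deficient over proficient (vertical axis, ± SE), of the 6 members in the 3 CH12F3 and 2 spleen comparisons, with a ring around values at an edgeR adjusted p below 0.05. Ighg3 and Ighg2b lie above 0 in the CH12F3 comparisons and below 0 in both spleen comparisons, and the ring marks Ighg2b at spleen day 2.5 (-1.44 ± 0.28).

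Ighm, which encodes the chain of the unswitched receptor, did not pass the edgeR test in any genotype comparison with low counts filtered. Without that filter it did at CH12F3 day 1.5 (-0.35, edgeR adjusted p = 0.00845; 0.00845 to 1.0 over 9 alternatives) and day 7 (0.87, edgeR adjusted p = 9.12e-08; 9.12e-08 to 1.0 over 7 alternatives). Those fold changes were alike with the filter, and the genotypes overlapped on both days. Calls made only without the filter thus rest on the fit's estimate of spread, here and for the members below. At CH12F3 day 1.5 Ighm was 3005, 2376, 3053 and 1751 CPM in ELOF1 libraries 1 to 4 and 1604, 1751, 2453 and 2260 CPM in vector libraries 1 to 4. The ranges overlapped, with a log2 fold change of -0.35 ± 0.33 (edgeR adjusted p = 0.726). At day 3 it was 2659 and 1451 CPM in ELOF1 and 2624 and 2708 CPM in vector libraries, which also overlapped (0.38 ± 0.46). At day 7 it was 1685 and 445 CPM in ELOF1 and 2297 and 1600 CPM in vector libraries. ELOF1 library 2 was the lowest of all 16 CH12F3 libraries, the ranges overlapped, and the fold change was 0.87 ± 0.46 (edgeR adjusted p = 0.912).

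In spleen at day 2.5, Ighm was 5096, 6920, 5028, 5075 and 4663 CPM in WT libraries 1 to 5 and 5767, 6078, 7071, 7830 and 6001 CPM in cKO libraries 1 to 5. All cKO libraries lay above 4 of the 5 WT libraries, and WT library 2 overlapped them (0.29 ± 0.17, edgeR adjusted p = 0.421). At day 3.5 it was 7809, 15259 and 8122 CPM in WT and 9178, 10003 and 12209 CPM in cKO libraries. WT library 2 was the highest of all spleen libraries and the groups overlapped (0.01 ± 0.22; -0.23 with scaling by the fly spike-in).

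Ighd, the δ gene read by splicing past μ, had group means of 0.914 to 3.52 CPM per kb in CH12F3 and 16.8 to 23.8 CPM per kb in spleen libraries, where each system was scaled on its own. At CH12F3 day 1.5 it was 6.17, 8.05, 4.70 and 2.38 CPM in ELOF1 and 5.60, 6.0, 3.83 and 5.10 CPM in vector libraries, with overlapping ranges (0.02 ± 0.28; -0.03 with fly scaling). At day 3 it was 3.63 and 1.62 CPM in ELOF1 and 4.45 and 3.93 CPM in vector libraries, with both vector libraries higher (0.68 ± 0.40). At day 7 it was 2.04 and 1.44 CPM in ELOF1 and 7.02 and 6.36 CPM in vector libraries. Both vector libraries were again above both ELOF1 libraries, with a log2 fold change of 1.94 ± 0.42 (edgeR adjusted p = 0.257; 0.000431 to 1.0 over 7 alternatives). DESeq2 called it (adjusted p = 0.0104), as did edgeR without the filter on low counts (adjusted p = 0.000431). The counts behind these day 7 values were 18 to 96.

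In spleen at day 2.5, Ighd was 60.4, 52.1, 54.8, 24.9 and 34.0 CPM in WT and 39.6, 38.2, 51.0, 31.5 and 41.5 CPM in cKO libraries. WT libraries 4 and 5, of the first run of library numbers, were the lowest of the WT group, and the genotypes overlapped (-0.11 ± 0.15, edgeR adjusted p = 0.794). Within the first run the difference was 0.29 and within the second -0.38. At day 3.5 Ighd was 39.4, 41.8 and 34.8 CPM in WT and 30.2, 28.6 and 37.0 CPM in cKO libraries, with overlap (-0.28 ± 0.19, edgeR adjusted p = 0.614). Zfp318, a nuclear protein needed for splicing to δ, had group means of 39.4 to 47.9 CPM in CH12F3 and 60.7 to 69.0 CPM in spleen libraries. Its part in the Ighd levels was not tested.

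**Figure D3:**
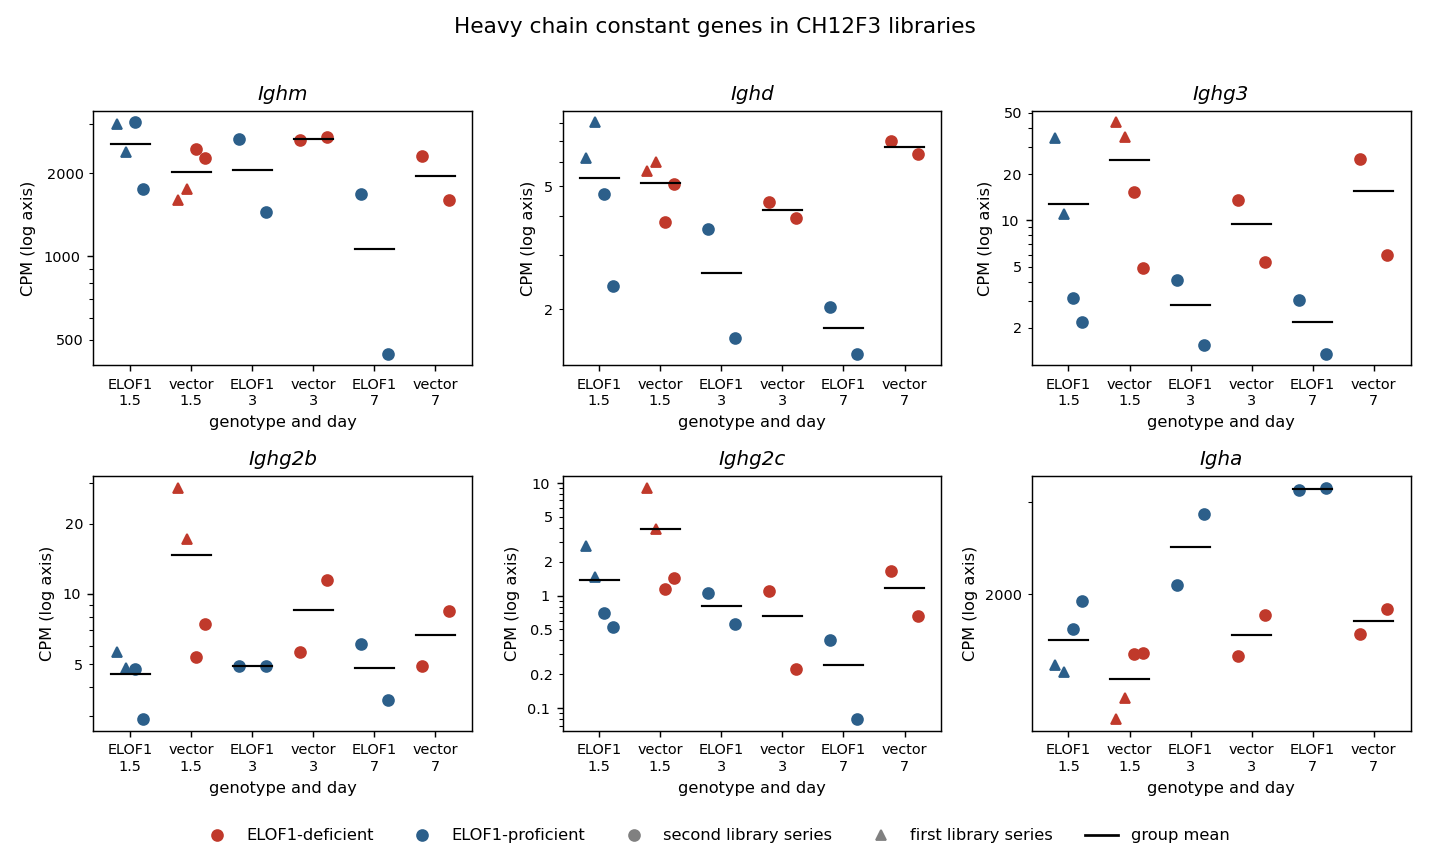
CPM after TMM scaling (vertical log axis) of each member in every CH12F3 library by genotype and day, with a bar at the group mean and triangles for libraries of the first run of library numbers. Igha is lower in vector than in ELOF1 libraries at days 3 and 7 without overlap (3160 and 3196 against 1677 and 1872 CPM at day 7), and Ighg3 is spread widely within each group at day 1.5.

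Igha, the α gene that CH12F3 cells switch to, was lower in the vector member of 8 of 8 same-numbered CH12F3 pairs, by -0.16 to -0.91 on the log2 scale (median -0.40), of which the 4 at days 3 and 7 follow from groups that did not overlap. At day 1.5 it was 1464, 1418, 1715 and 1938 CPM in ELOF1 and 1153, 1267, 1539 and 1545 CPM in vector libraries. The ranges overlapped, since vector libraries 3 and 4 lay above ELOF1 libraries 1 and 2 of the other run. The log2 fold change was -0.25 ± 0.10 (edgeR adjusted p = 0.271), and within the runs it was -0.27 and -0.26. It was -0.25 ± 0.06 with the replicate block and passed the test (edgeR adjusted p = 0.0193; 0.0193 to 0.889 over 9 alternatives).

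At CH12F3 day 3 Igha was 2078 and 2842 CPM in ELOF1 and 1520 and 1823 CPM in vector libraries. Both vector libraries were lower (-0.56 ± 0.14, edgeR adjusted p = 0.826). At day 7 it was 3160 and 3196 CPM in ELOF1 and 1677 and 1872 CPM in vector libraries. Again both vector libraries were lower, and the log2 fold change of -0.84 ± 0.14 was not called (edgeR adjusted p = 0.054; 5.63e-07 to 0.98 over 7 alternatives). It was called by DESeq2 (adjusted p = 1.04e-05) and by edgeR without the filter on low counts (adjusted p = 5.63e-07). Among all genes the ranges of 2 against 2 libraries did not overlap in 32.4% of genes at day 3 and 32.8% at day 7. Igha was 1 of 4 members without overlap on each of these days, the others being Ighd, Ighg3 and Ighg2b, all higher in vector libraries, at day 3 and Ighd, Ighg3 and Ighg2c, all higher, at day 7.

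In spleen B cells, whose labelled stimulus holds no TGF-β, Igha was at 1.12 to 17.8 CPM. At day 2.5 it was 3.27, 4.21, 3.32, 1.65 and 17.8 CPM in WT and 2.43, 1.12, 3.64, 1.91 and 12.7 CPM in cKO libraries. Library 5 was far above the others in both genotypes, with at least 200 counts in each, against 14 to 48 counts in the other libraries of that day. The genotypes overlapped (-0.50 ± 0.55, edgeR adjusted p = 0.733). Without both libraries numbered 5 the difference was -0.42 (edgeR adjusted p = 0.528; 0.349 to 1.0 over 10 alternatives), without cKO library 5 alone -1.09, and without WT library 5 alone it turned to 0.16. At day 3.5 it was 4.77, 8.31 and 4.96 CPM in WT and 4.13, 3.15 and 9.34 CPM in cKO libraries, with overlap (-0.13 ± 0.69).

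The γ members were low in CH12F3 cells, and each was higher in the vector library of at least 7 of 8 same-numbered pairs. At days 3 and 7, which hold 4 of the 8 pairs, the numbers are not known to pair libraries. The share of all genes with such counts of pairs was not computed, for these genes or for Igha. Ighg3, which LPS induces in normal B cells, at day 1.5 was 34.4, 11.1, 3.13 and 2.18 CPM in ELOF1 and 43.5, 34.7, 15.2 and 4.89 CPM in vector libraries. Libraries 1 and 2 were high in both genotypes and the ranges overlapped, yet within each pair the vector library was higher. The log2 fold change was 1.27 ± 0.54 (edgeR adjusted p = 0.311), with 0.77 within the first run and 1.90 within the second. It was 1.26 ± 0.23 with the replicate block and passed the test (edgeR adjusted p = 0.00217; 5.58e-09 to 0.955 over 9 alternatives). At day 3 Ighg3 was 4.11 and 1.55 CPM in ELOF1 and 13.5 and 5.34 CPM in vector libraries, and at day 7 it was 3.01 and 1.36 against 25.02 and 5.96 CPM. Both vector libraries were higher on both days (1.74 ± 0.82 at day 3; 2.81 ± 0.84, edgeR adjusted p = 0.628, at day 7). Over all days the vector library was higher in 8 of 8 same-numbered pairs, by 0.34 to 3.05, of which the 4 at days 3 and 7 follow from groups that did not overlap.

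Ighg2b, at CH12F3 day 1.5, was 5.64, 4.81, 4.78 and 2.91 CPM in ELOF1 and 28.5, 17.2, 5.37 and 7.44 CPM in vector libraries. Vector libraries 1 and 2 were the highest, and vector library 3 lay within the ELOF1 range. The log2 fold change was 1.45 ± 0.35 (edgeR adjusted p = 0.0644), and it was 2.10 within the first run (edgeR adjusted p = 0.0484) and 0.74 within the second (edgeR adjusted p = 0.828). The value with the replicate block, 1.46 ± 0.29, passed the test (edgeR adjusted p = 0.0049; 2.99e-08 to 0.828 over 9 alternatives). It also passed without ELOF1 library 3 (1.75, edgeR adjusted p = 0.0476) or vector library 3 (1.67, edgeR adjusted p = 0.0455). At day 3 Ighg2b was 4.92 and 4.93 CPM in ELOF1 and 5.64 and 11.4 CPM in vector libraries, with both vector libraries higher (0.80 ± 0.47). At day 7 it was 6.11 and 3.51 CPM in ELOF1 and 4.92 and 8.48 CPM in vector libraries, with overlap (0.49 ± 0.48). The vector library was higher in 7 of 8 pairs, of which those at day 3 follow from groups that did not overlap.

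Ighg2c rested on few counts in CH12F3 cells. The reads at day 1.5 numbered 21, 14, 9 and 8 in ELOF1 and 73, 38, 12 and 21 in vector libraries, or 2.76, 1.46, 0.705 and 0.529 against 9.09, 3.87, 1.15 and 1.45 CPM. The ranges overlapped (1.39 ± 0.49, edgeR adjusted p = 0.216), and the vector library was higher in 7 of 8 pairs over the 3 days. The value with the replicate block, 1.38 ± 0.33, passed the test (edgeR adjusted p = 0.0138; 0.0138 to 0.877 over 9 alternatives). At day 3 the counts were 13 and 8 in ELOF1 and 12 and 3 in vector libraries, and at day 7 they were 5 and 1 against 19 and 10. The day 3 ranges overlapped (-0.33 ± 0.78), and at day 7 both vector libraries were higher (2.19 ± 0.86, edgeR adjusted p = 0.78). The direction of the day 7 pairs follows from that. Ighg1 and Ighe, the IL-4 responsive genes of the locus, were also higher in vector libraries at day 1.5 (1.54 ± 0.24 and 1.59 ± 0.23, edgeR adjusted p = 0.00788 and 0.00603).

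In spleen B cells the log2 fold changes of the γ members were below 0 on both days. Ighg2b, a target of LPS and TGF-β, was the member that passed the test, and at day 2.5 it was 84.8, 138, 60.0, 39.8 and 48.2 CPM in WT and 25.8, 23.2, 26.2, 26.5 and 27.1 CPM in cKO libraries. Every cKO library was below every WT library, and the cKO libraries were alike (25.8 ± 1.50 CPM, SD, n = 5) while the WT libraries were spread (74.2 ± 39.7 CPM, n = 5). Such a gap in the lower direction was found in 1.62% of all genes tested. Ighg2b fell by 1.44 ± 0.28 on the log2 scale (edgeR adjusted p = 0.00646), and it was called without each library in turn (-1.60 to -1.16, edgeR adjusted p = 0.0042 to 0.0259). Within the second run it was -1.92 (edgeR adjusted p = 0.000547) and within the first, with 2 libraries of each genotype, -0.73 (edgeR adjusted p = 1.0). At day 3.5 it was 98.0, 193 and 101 CPM in WT and 62.0, 47.3 and 81.7 CPM in cKO libraries. All cKO libraries were lower, which held in the lower direction for 12.5% of genes, with a log2 fold change of -1.04 ± 0.34 (edgeR adjusted p = 0.144). With the day 2.5 libraries numbered 5 left out of the shared fit it was called (edgeR adjusted p = 0.0297), as it was by DESeq2 (adjusted p = 0.0493; 6.23e-11 to 0.337 over 9 alternatives).

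Ighg3, at spleen day 2.5, was 64.3, 109, 53.3, 34.3 and 14.3 CPM in WT and 28.8, 29.6, 34.4, 27.5 and 19.8 CPM in cKO libraries. WT libraries 1 to 3 were above every cKO library, while WT libraries 4 and 5, of the first run, overlapped them. The log2 fold change was -0.81 ± 0.29 (edgeR adjusted p = 0.126), with -1.30 within the second run (edgeR adjusted p = 0.00282) and -0.05 within the first (edgeR adjusted p = 1.0). The replicate block gave -0.76 ± 0.24, not called (edgeR adjusted p = 0.0527). Without both libraries numbered 5 it was -1.07 ± 0.22 and passed the test (edgeR adjusted p = 0.00335; 8.42e-10 to 1.0 over 10 alternatives), as it did without WT library 5 alone (-1.07, edgeR adjusted p = 0.0116). At day 3.5 Ighg3 was 93.6, 163 and 98.2 CPM in WT and 43.2, 40.0 and 55.5 CPM in cKO libraries. All cKO libraries were lower (-1.36 ± 0.36, edgeR adjusted p = 0.0661), and with the day 2.5 libraries numbered 5 left out of the shared fit the adjusted p was 0.00125 (5.74e-18 to 0.314 over 9 alternatives). Alternatives planned before seeing the data called Ighg3 too. These included only the compared groups in the fit (edgeR adjusted p = 0.00101), fly scaling (edgeR adjusted p = 0.0118) and DESeq2 (adjusted p = 0.00667). Leaving out any 1 library of day 3.5 gave no call (edgeR adjusted p = 0.118 to 0.221). At day 2.5 it was lower in cKO in each same-numbered pair other than pair 5.

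Ighg2c differed most between libraries. At spleen day 2.5 it was 19.7, 41.7, 15.6, 0.971 and 12.7 CPM in WT and 2.62, 1.12, 2.88, 1.05 and 14.3 CPM in cKO libraries. WT library 4 was as low as the cKO libraries and cKO library 5 as high as the WT libraries, so the ranges overlapped (-1.97 ± 0.82, edgeR adjusted p = 0.207). Within the second run the difference was -3.55 (edgeR adjusted p = 0.000193) and within the first 0.15. The replicate block gave -2.13 ± 0.58, which was called (edgeR adjusted p = 0.0245), and without both libraries numbered 5 it was -3.22 ± 0.50 and called (edgeR adjusted p = 0.000309; 1.89e-21 to 1.0 over 10 alternatives). It was also called without cKO library 5 alone (-3.39, edgeR adjusted p = 0.00369) or WT library 4 alone (-2.63, edgeR adjusted p = 0.0354). Leaving out both libraries numbered 5 was chosen after seeing these values, among them the high Ighg2c of cKO library 5. At day 3.5 Ighg2c was 24.3, 51.5 and 16.9 CPM in WT and 2.92, 2.91 and 5.76 CPM in cKO libraries. All cKO libraries were lower (-3.00 ± 0.98, edgeR adjusted p = 0.145), and with the day 2.5 libraries numbered 5 left out the adjusted p was 0.000514 (5.34e-35 to 0.297 over 9 alternatives). The planned fit of only the compared groups called it too (edgeR adjusted p = 0.00075). Leaving out any 1 library of day 3.5 gave no call (edgeR adjusted p = 0.216 to 0.371). Ighg3, Ighg2b and Ighg2c were thus 3 of 6 members below WT without overlap at day 3.5, against 12.5% of all genes in that direction. Ighg1 was also lower (-1.43 ± 0.13 at day 2.5 and -1.32 ± 0.17 at day 3.5).

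**Figure D4:**
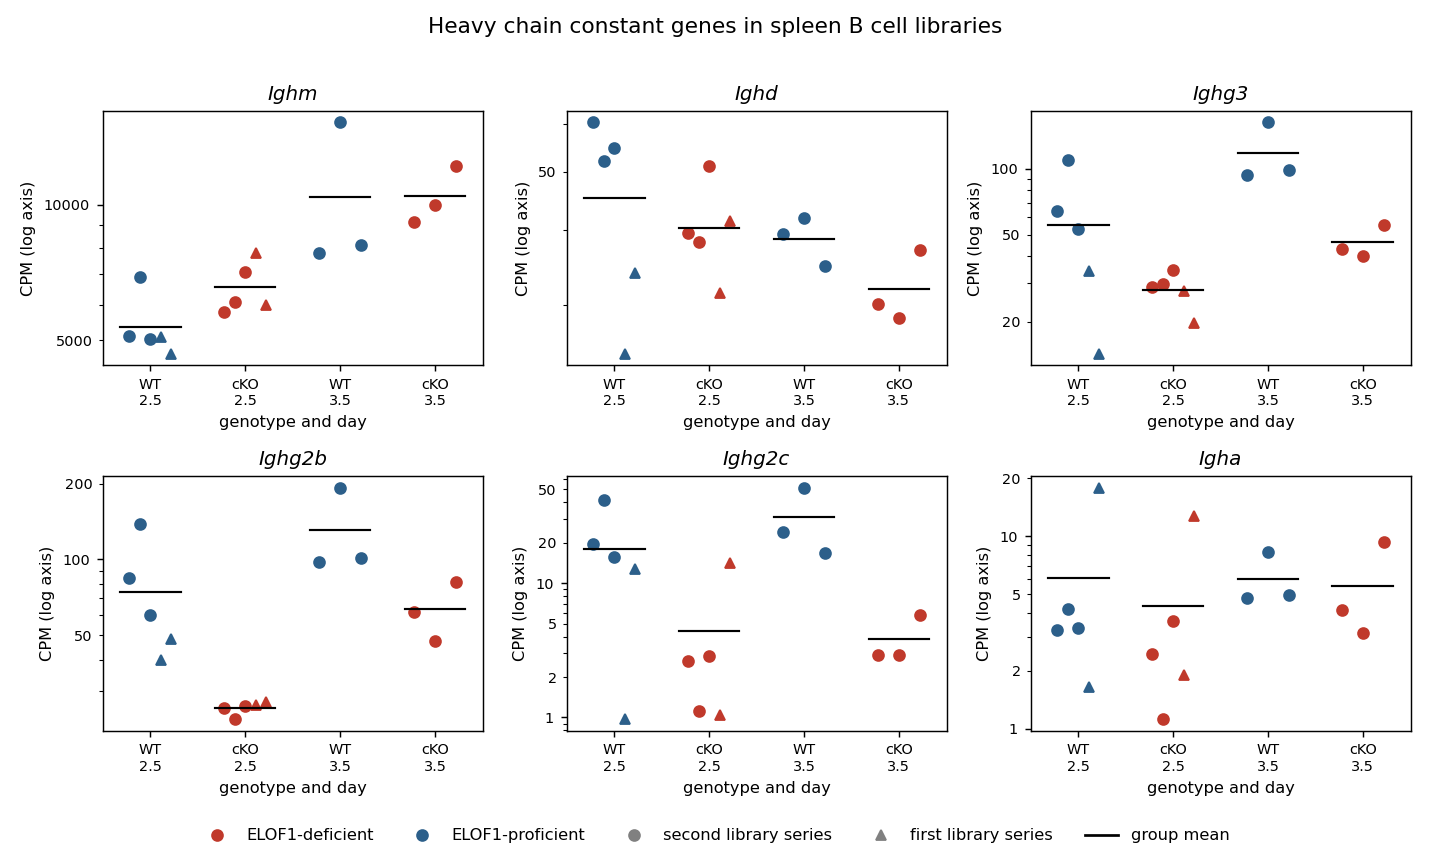
CPM after TMM scaling (vertical log axis) of each member in every spleen library by genotype and day, with a bar at the group mean and triangles for libraries of the first run of library numbers. The cKO libraries of Ighg2b at day 2.5 lie between 23.2 and 27.1 CPM, below all WT libraries, and the libraries numbered 5 are the highest Igha points of that day in each genotype.

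The genotype difference was then compared between the systems in 1 fit over all 32 libraries, as the mean difference in spleen minus that in CH12F3, a test added after values had been seen. Of the 6 members 3 were called, against 2.28% of 15639 genes tested, with 4 by DESeq2, against 4.05%. Ighg3 differed by -3.00 ± 0.49 (edgeR adjusted p = 0.000559), Ighg2b by -2.16 ± 0.35 (edgeR adjusted p = 0.000491) and Ighd by -1.07 ± 0.23 (edgeR adjusted p = 0.00999). Ighg2c had the largest value, -3.58 ± 1.0, and was not called (edgeR adjusted p = 0.0565), though it was without both spleen libraries numbered 5 (-4.13 ± 0.69, edgeR adjusted p = 0.00051; 2.41e-22 to 0.0983 over 7 alternatives), where 3.88% of genes were called. It was also called without cKO library 5 (-4.26, edgeR adjusted p = 0.000966) or WT library 4 (-3.92, edgeR adjusted p = 0.00796) of spleen day 2.5. Ighd was not called without a term for the run of library numbers (edgeR adjusted p = 0.106; 3.83e-06 to 0.106 over 7 alternatives). Ighm (-0.14 ± 0.29) and Igha (0.25 ± 0.43) did not pass the test. The systems also differ in cell type, stimulus, days and the ELOF1-proficient side of the comparison, which cannot be told apart. That side was a knockout with ELOF1 added in CH12F3 (Elof1 at 139.6 to 681 CPM) and WT in spleen (10.99 to 55.1 CPM), each system scaled on its own.

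**Figure D5:**
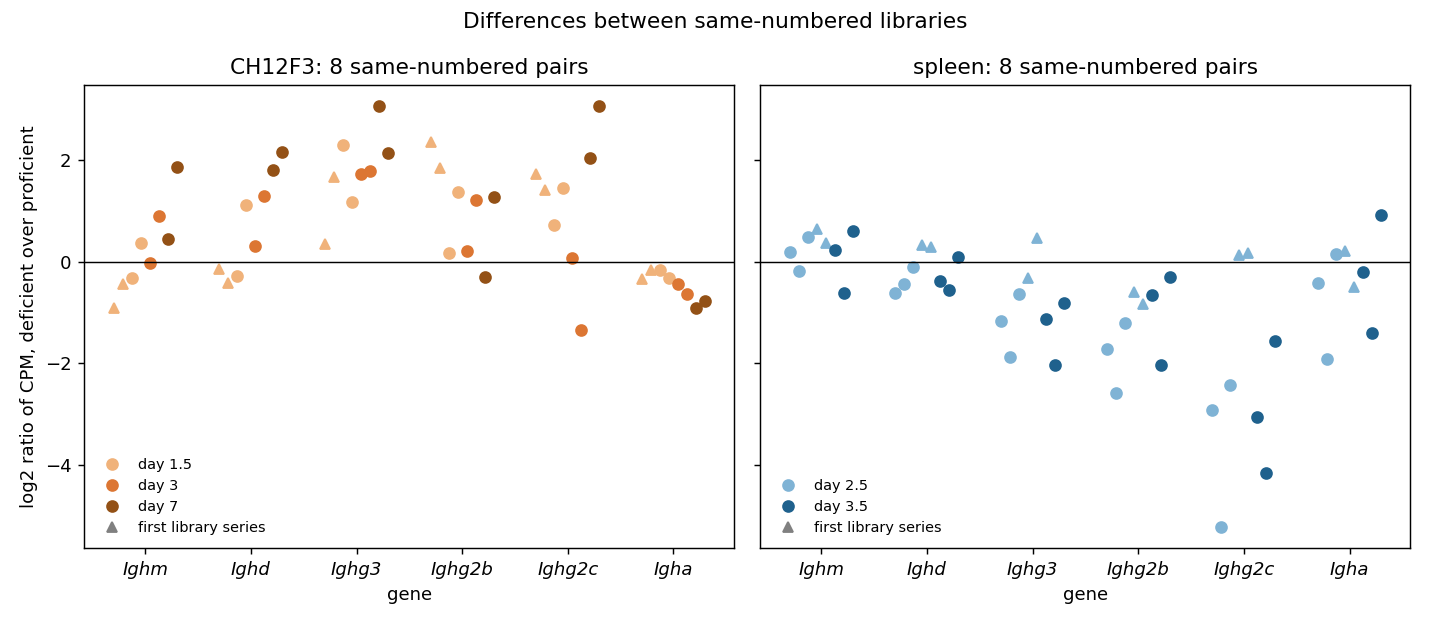
Log2 ratio of CPM between same-numbered libraries, deficient over proficient (vertical axis), for each member, with 1 point per pair (8 in CH12F3, 8 in spleen), colour for the day and triangles for the first run of library numbers. All 8 Ighg3 points lie above 0 and all 8 Igha points below 0 in CH12F3, and at spleen day 2.5 pair 5 is the Ighg3 point above 0.

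Over time in ELOF1-proficient CH12F3 cells, 1 of 6 members was called between days 1.5 and 7, against 0.0493% of genes. Igha rose by 0.80 ± 0.13 (edgeR adjusted p = 0.0429), from the values above to 3160 and 3196 CPM, and both day 7 libraries lay above all day 1.5 libraries, as they did for 11.9% of genes. The call was lost without ELOF1 library 1, 3 or 4 of day 1.5 or either library of day 7, and held without library 2 of day 1.5 (0.74 to 0.85, edgeR adjusted p = 0.0487 to 0.373). In vector libraries Igha differed by 0.20 ± 0.13 (edgeR adjusted p = 0.742), and 0 of 6 members were called, with 0 at an unadjusted p below 0.05 (1218 of 14201 genes) and 0 by DESeq2 (1.31% of genes), against 0.169% of genes. The difference between these steps was -0.59 ± 0.17 for Igha and did not pass the test (edgeR adjusted p = 1.0). Ighm in ELOF1 libraries was lower at day 7 than at day 1.5 without overlap (-1.35 ± 0.45, edgeR adjusted p = 0.436), as were Ighd (-1.19 ± 0.40) and Ighg2c (-1.13 ± 0.85), against 12% of all genes that were lower without overlap. Between days 1.5 and 3, 0 members were called in either genotype, against 0.00704% of genes in each, with 1 (ELOF1) and 0 (vector) at an unadjusted p below 0.05 (598 and 856 of 14201 genes) and 0 by DESeq2 (0.196% and 0.448% of genes).

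In WT spleen B cells 1 of 6 members was called between days 2.5 and 3.5, against 5.45% of genes. Ighm rose from 5357 ± 892 (SD, n = 5) to 10397 ± 4214 CPM (n = 3), by 0.94 ± 0.21 (edgeR adjusted p = 0.0156), and all day 3.5 libraries were above all day 2.5 libraries, as they were for 9.16% of genes. Without WT library 2 of day 3.5 the step was 0.56 and not called (edgeR adjusted p = 0.102), and without WT library 3 of day 2.5 it was 0.91 and not called (edgeR adjusted p = 0.0516). Without WT library 2 of day 2.5, Ighg3 (1.23, edgeR adjusted p = 0.0349) and Ighg2b (1.06, edgeR adjusted p = 0.0433) were called too. With fly scaling the Ighm step was 0.80 (edgeR adjusted p = 0.0509; 1.89e-09 to 0.0509 over 8 alternatives). A block for the library number rested on weak correlations of WT libraries 1 to 3 across the days (r of 0.165 to 0.185). With it, 5 of 6 members were called against 15.7% of genes. These were Ighm (0.82 ± 0.10, edgeR adjusted p = 8.09e-05), Ighg3 (0.66 ± 0.09, adjusted p = 0.00012), Ighg2b (0.48 ± 0.11, adjusted p = 0.00739), Ighd (-0.53 ± 0.09, adjusted p = 0.00122) and Igha (0.72 ± 0.23, adjusted p = 0.0421). In cKO libraries the steps were 0.66 ± 0.21 for Ighm, 1.08 ± 0.33 for Ighg2b and 0.31 ± 0.35 for Ighg3, all day 3.5 libraries being above all day 2.5 libraries, against 9.13% of all genes in that direction. There 0 of 6 were called, against 3.4% of genes, with 3 at an unadjusted p below 0.05 (2108 of 13367 genes) and 3 by DESeq2 (6.01% of genes). The genotype difference was not called to differ between days for any member in either system, where 0% of genes were called. At an unadjusted p below 0.05 there were 0 in spleen, 0 for CH12F3 day 3 and 3 for CH12F3 day 7 against day 1.5, where 278 of 13367, 173 of 14201 and 272 of 14201 genes did so, and DESeq2 called 0 in each.

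A ratio to Ighm within a library needs no scaling between libraries. Of 25 such ratios compared by exact 2-sided permutation tests, 2 had an unadjusted p below 0.05 and 0 had a Benjamini-Hochberg adjusted p below 0.05. Both were Ighg2b. Its log2 count ratio to Ighm was -7.39 ± 1.39 in vector and -9.12 ± 0.169 in ELOF1 libraries at CH12F3 day 1.5 (SD, n = 4 each, exact p = 0.0286, adjusted p = 0.357), with a difference of 2.75 within the first run and 0.73 within the second. At spleen day 2.5 it was -7.98 ± 0.181 in cKO and -6.31 ± 0.539 in WT libraries (n = 5 each, exact p = 0.0079, adjusted p = 0.198), with -1.20 within the first run and -1.99 within the second. The smallest p these designs allow is 0.0286 for 4 against 4, 0.00794 for 5 against 5, 0.1 for 3 against 3 and 0.333 for 2 against 2. Ratios in groups of 2 or 3 could thus not pass. Over 25 ratios the smallest of these p-values, for 5 against 5, was adjusted to 0.198, so 1 such ratio alone could not pass either. The 0 adjusted calls therefore do not show that the ratios were alike. At spleen day 3.5 the differences in ratio were -1.39 for Ighg3, -1.07 for Ighg2b and -2.97 for Ighg2c, all without overlap (exact p = 0.1 each). The Igha to Ighm ratio of CH12F3 cells differed by 0.08 at day 1.5, -0.99 at day 3 and -1.99 at day 7, and the latter pair did not overlap.

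Across the 16 libraries of a system, the members varied together in part. The following Pearson correlations of log2 CPM are descriptions, since the libraries share genotype, day and run. In CH12F3 libraries Ighg3 and Ighg2c correlated with r = 0.85, and Igha ran opposite to Ighd (r = -0.85), Ighg3 (r = -0.83) and Ighg2c (r = -0.81). In spleen libraries Ighg3 and Ighg2b correlated with r = 0.87 and Ighg2b and Ighg2c with r = 0.79. Of 10081 genes compared in spleen, Xbp1, a transcription factor of the secretory programme, was most like Ighm (r = 0.94). Ighg1 was most like Ighg2b (r = 0.95). Derl3 and Bhlha15, genes of the secretory pathway and its control, were most like Ighg3 (r = 0.93 and 0.92), Pltp was most like Ighg2c (r = 0.86), Mlkl most like Igha (r = 0.89) and Creld1 most like Ighd (r = 0.87). Of 10298 genes compared in CH12F3, the most alike were Mks1 for Ighm (r = 0.81), Rfxap for Ighd (r = 0.84), Atp6v0a1 for Ighg3 (r = 0.92), Tnfsf4 and Cd80, which encode ligands of costimulatory receptors on T cells, for Ighg2b (r = 0.90 and 0.89), Sap25 for Ighg2c (r = 0.91) and Cep78 for Igha (r = 0.90).

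The genes that act on these loci were counted from lists. Of 27 regulators of germline transcription, 25 were tested in CH12F3 cells, and at day 1.5 4 rose and 0 fell, against 0.606% and 0.549% of all genes. These were Nfkb2 (0.52 ± 0.06), Stat6, which carries the IL-4 signal (0.48 ± 0.08), Irf4 (0.50 ± 0.10) and the IL-4 receptor gene Il4ra (0.49 ± 0.10), and the list median was 0.15 against 0.01 over all genes. The count was 1 without ELOF1 library 1 or vector library 2 and 2 without ELOF1 library 3 or vector library 4. With the replicate block 9 rose and 1 fell, where 8.6% of all genes were called. At spleen day 2.5 2 of 27 rose, Spi1 (0.40 ± 0.08) and Id2 (0.79 ± 0.21), and 2 fell, Ikzf1 (-0.36 ± 0.07) and Irf4 (-0.47 ± 0.10), against 2.82% and 2.36% of all genes, with a list median of 0.07. With the replicate block 6 rose and 4 fell, where 11.5% of all genes were called. At day 3.5 Irf4 alone fell (-0.55 ± 0.13, edgeR adjusted p = 0.033), against 0.928% of all genes, and of this list 1 gene was called without WT library 2 and 0 without any 1 of the other 5 libraries of that day. At CH12F3 days 3 and 7, 0 of these genes were called in the main fit. With the replicate block 4 rose and 1 fell at spleen day 3.5, and 1 rose at CH12F3 day 7, though the numbers were not taken as pairs there. The shares of all genes called with that block stand in the section on the dependence on processing.

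Of 22 genes of the switching machinery, among them Ung and the mismatch and end-joining factors, 20 were tested in CH12F3 and 21 in spleen cells. In CH12F3 cells 0 were called on any day, with list medians of 0.01, -0.02 and 0.02. At spleen day 2.5 1 rose, the mismatch repair gene Msh6 (0.24 ± 0.06, edgeR adjusted p = 0.0298), against 2.82% of all genes, with a list median of -0.08 and 0 to 2 calls without each library in turn (0 without cKO library 1 or 2 or WT library 2 or 3, 2 without cKO library 4 or WT library 5), and at day 3.5 0 were called. With the replicate block 1 rose at CH12F3 day 1.5, and 2 rose and 1 fell at spleen day 2.5, against 8.6% and 11.5% of all genes. At spleen day 3.5, where the numbers were not taken as pairs, 1 fell with that block. Of 11 genes that act on heavy chain RNA processing and abundance, Prdm1, a regulator of plasma cell differentiation, fell at CH12F3 day 1.5 (-2.87 ± 0.62, edgeR adjusted p = 0.0434) and Ebf1 fell at spleen day 2.5 (-0.48 ± 0.14, edgeR adjusted p = 0.0492), against 0.549% and 2.36% of all genes. The Prdm1 call was lost without ELOF1 library 1, 2 or 3 or vector library 1, 2 or 4, and the Ebf1 call without cKO library 1, 2 or 3 or WT library 1, 3 or 4. Of 7 light chain constant genes and receptor partners 5 were tested, and 1 fell at CH12F3 day 1.5, Iglc2 (-0.98 ± 0.16, edgeR adjusted p = 0.0105), against 0.549% of all genes. With the replicate block 1 rose and 3 fell there, against 8.6% of all genes. In the other comparisons 0 were called in the main fit. With the replicate block 1 fell at CH12F3 day 3, 1 fell at CH12F3 day 7 and 1 rose at spleen day 2.5. The shares of all genes called with that block stand in the section on the dependence on processing.

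Markers of plasma cells, which carry much heavy chain RNA, are given beside these results. The 6 plasma cell markers summed to 578 to 887 CPM in ELOF1 and 351 to 875 CPM in vector libraries at CH12F3 day 1.5, and Prdm1 was 27.01 ± 16.3 against 3.22 ± 1.63 CPM (SD, n = 4 each). Prdm1 was 12.8 ± 7.49 against 4.16 ± 2.73 CPM at day 3 and 13.2 ± 11.2 against 4.32 ± 3.58 CPM at day 7 (n = 2 each). The 6 markers summed to 739 to 925 CPM in ELOF1 and 725 to 997 CPM in vector libraries at day 3. At day 7 they summed to 724 to 750 and 613 to 716 CPM. In spleen they summed to 707 to 1044 CPM in WT and 762 to 872 CPM in cKO libraries at day 2.5, and to 1275 to 1932 and 1239 to 1622 CPM at day 3.5. All 6 were detected in each of these groups, apart from Tnfrsf17, which was at 0 in the vector libraries of CH12F3 days 3 and 7. In spleen the sums were higher at day 3.5 than at day 2.5, as Ighm was. The part of these markers in the member values was not tested. The 8 B cell markers summed to 995 to 1615 CPM in CH12F3 libraries, lower in every ELOF1 than in every vector library of the same day, and to 3029 to 4801 CPM in spleen libraries, where the genotypes overlapped. The 9 T and NK cell markers summed to at most 7.74 CPM in any library, with Cd4 at 0 in 3 of 4 spleen groups. The 7 myeloid markers summed in ELOF1 libraries to 55.3 to 78.0 CPM at day 1.5 and 124 to 174 CPM at day 7, and in vector libraries to 47.0 to 104.0 and 136 to 235 CPM, so that they were higher at day 7, as Igha was in ELOF1 libraries, and their part in that step was not tested. In spleen libraries they summed to 2.72 to 17.7 CPM, with S100a8 and S100a9 at 0 in all libraries of both systems, and the 5 erythroid markers to at most 2.61 CPM.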

How the data were processed

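The authors deposited raw read counts per gene, separately for CH12F3 and spleen. The labels' protocols describe rRNA depletion and strand-specific NEB library kits, and the design text of the series a spike-in of Drosophila S2 polyA RNA. The submitters' processing notes list Bowtie2, featureCounts, mm10 and dm6. Whether counting used strand, and what was done with multiply mapped reads, is not given in the sources used. Each table held 60854 genes, 43345 of mouse and 17509 of fly, and the fly genes entered only the spike-in alternative. No column belonged to another series.

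Mouse counts were fitted with edgeR 4.0.16 (limma 3.58.1, R 4.3.3), with TMM scaling, filterByExpr (minimum count of 10) and 1 fit per system over 16 libraries, with terms for the group and the run of library numbers. Benjamini-Hochberg adjustment was over all 14201 CH12F3 or 13367 spleen genes. CPM are after TMM scaling, as mean ± SD, and log2 CPM in correlations have a prior count of 2. DESeq2 1.42.0 was an alternative. Log2 ratios to Ighm had a pseudocount of 0.5 and were compared by exact permutation tests in Python 3.11.15 with NumPy 2.4.6, pandas 2.3.3 and SciPy 1.17.1, and plots were drawn with matplotlib 3.10.9. The fits were tested on simulated data. Depth limits Ighg2c in CH12F3 cells most (1 to 73 counts).

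Other alternatives were fly spike-in scaling, DESeq2 size factors in edgeR, no filter on low counts, no term for the run, each run alone, only the compared groups in the fit, a replicate block, leaving out each library in turn and, added after seeing the data, leaving out the spleen day 2.5 libraries numbered 5 or 4 and 5. Ratios were also computed with a pseudocount of 5. With fly scaling the median log2 fold change of all genes was -0.19 and -0.14 at CH12F3 days 3 and 7 and -0.14 and -0.29 at spleen days 2.5 and 3.5, against 0 to 0.01 with TMM.

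Same-numbered libraries of the genotypes were taken as pairs where the deviations from their group means correlated above 0.1 in at least 3 pairs. This held at CH12F3 day 1.5 (r of 0.636 to 0.672), at spleen day 2.5 (0.279 to 0.796, though libraries 1, 2 and 3 correlated more with another number, at 0.458 to 0.514) and, across the spleen days, for WT numbers 1 to 3 (0.165 to 0.185). It did not hold at spleen day 3.5 or for cKO across the days, and CH12F3 days 3 and 7 have 2 pairs each. The pairing comes from these correlations and not from the labels. At CH12F3 day 1.5 and spleen day 2.5 the group means hold both runs of library numbers. Libraries of the same run can therefore correlate without being pairs, and the cutoff of 0.1 does not tell these apart. At CH12F3 day 1.5 each library correlated most with its own number, the highest r to another number being 0.275 to 0.396.

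The members and lists were chosen with earlier results of these data known. The text names all 6 members, up to 4 called genes per list and comparison, Ighg1, Ighe and Elof1, and the genes with the highest Pearson r to a member among those whose log2 CPM averaged 1 or more. Predicted genes and V, D and J segments were left out.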

Additional observations from a re-analysis of the deposited data

Results flagged for a closer look

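Ighm in WT spleen library 2 at day 2.5 stood apart from its group, at 6920 CPM against 4663 to 5096 CPM in the other 4 libraries. Of 24 sets of values tested, each 1 member in a group of 4 or 5 libraries, 1 had such a gap, and chance gives about 1 in 20. The genotype difference of Ighg3 (-3.00), Ighg2b (-2.16) and Ighd (-1.07), as spleen minus CH12F3 on the log2 scale, differed between the systems in a test of the difference itself over all 32 libraries, added after values had been seen (edgeR adjusted p = 0.000559, 0.000491 and 0.00999).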

How the results depend on the processing

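The main number of members called was 1 for the ELOF1 step to CH12F3 day 7, spleen day 2.5 and the WT step, 3 for the difference between systems and 0 elsewhere. The share of all genes called in the same setting stands in parentheses. With the replicate block it was 4 at CH12F3 day 1.5 (8.6%), 1 at day 3 (0.246%), 3 at day 7 (0.493%), 2 at spleen day 2.5 (11.5%), 2 at day 3.5 (6.21%), 6 for the cKO step (13.3%), 5 for the WT step (15.7%) and 4 between systems (6.83%), and it stayed at 0 for the differences between days. The numbers were taken as pairs only at CH12F3 day 1.5, at spleen day 2.5 and for the WT step. At spleen day 2.5 only libraries 4 and 5 correlated most with their own number, and for the WT step the correlations were weak. DESeq2 gave 1 at CH12F3 day 1.5 (3.4%), 2 at day 7 (0.198%), 3 for the cKO step (6.01%), 2 at spleen day 2.5 (8.19%) and 2 at day 3.5 (4.24%). Without a filter on low counts it was 4, 2 and 4 at CH12F3 days 1.5, 3 and 7 (3.04%, 0.199% and 0.456%), 3 and 3 at spleen days 2.5 and 3.5 (3.76% and 2.21%), 2 for the ELOF1 and 1 for the vector step to day 7 (0.936% and 1.49%), 4 for the cKO and 4 for the WT step (3.64% and 4.68%), and 1 and 3 for the CH12F3 differences between days (0.0124% and 0.0746%). Fly scaling gave 0 for the ELOF1 step to day 7 (0.0282%), 0 for the WT step (1.25%) and 2 at spleen day 3.5 (0.786%). Without the term for the run it was 0 for the ELOF1 step to day 7 (0%) and 1 for the cKO step (2.13%). The first run alone gave 1 at CH12F3 day 1.5 (0.403%) and 0 at spleen day 2.5 (0%), and the second run alone gave 0 for the ELOF1 step to day 7 (0%), 3 for the cKO step (13.1%), 2 for the WT step (15.6%) and 3 at spleen day 2.5 (6.65%). Fitting only the compared groups gave 3 at spleen day 3.5 (6.93%). Leaving out the spleen day 2.5 libraries numbered 5, an alternative chosen after seeing the data, gave 3 at day 2.5 (11.6%), 3 at day 3.5 (8.88%), 3 for the cKO (13.9%) and 3 for the WT step (15.8%), and leaving out those numbered 4 and 5 gave 3 at day 3.5 (9.38%). Without each library in turn it was 0 to 1 at CH12F3 day 1.5, 0 to 1 for the ELOF1 step to day 7, 1 to 2 at spleen day 2.5, 0 to 3 for the WT step and 3 to 4 between systems. The cause was not tested.

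Members changed direction as follows, and of these values 1 was called, the Ighg2c cKO step with the number block (edgeR adjusted p = 0.026). In the first run alone Ighd was -0.32 at CH12F3 day 1.5 and 0.29 at spleen day 2.5, and Ighg2c was 0.15 there. With fly scaling Ighd was -0.03 at CH12F3 day 1.5, Ighm -0.23 at spleen day 3.5, and Igha, Ighd and Ighg2b were -0.03, -0.09 and -0.07 in the vector step to day 3. Without the term for the run Ighd was -0.04 at CH12F3 day 1.5, Ighg2c -0.70 in the ELOF1 step to day 3, Ighd -0.29, Ighg2b -0.76 and Ighg3 -1.38 in the vector step to day 3, Ighg3 -0.66 in that to day 7 and Igha -0.02 in the WT step. In the second run alone Ighg3 was 0.08 in the ELOF1 step to day 3, Ighd -0.09 and Ighg3 -0.08 in the vector step to day 3, Ighg2b 0.07 in that to day 7, Ighg2c 0.81 in the cKO step and the Igha to Ighm ratio -0.27 at CH12F3 day 1.5. The Ighg2c cKO step was 0.82 with the number block and 0.58 without the libraries numbered 5. The difference between spleen days was 0.21 for Ighg2c without libraries 5, and 0.10 for Ighd and 0.54 for Ighg2c without those numbered 4 and 5.

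Without each library in turn, these directions also turned: Ighd at CH12F3 day 1.5 (-0.20 to 0.16), Ighg2c at day 3 (-1.81 to 0.46), Ighg3 in the ELOF1 step to day 3 (-1.15 to 0.26) and in the difference between days 3 and 1.5 (-0.34 to 1.32). In the vector step to day 3 they were Ighd (-0.04 to 0.30), Ighg2b (-0.53 to 0.47) and Ighg3 (-0.64 to 0.98), and in that to day 7 Ighg2b (-0.71 to 0.05), Ighg2c (-1.10 to 0.25), Ighg3 (-0.48 to 1.68) and Ighm (-0.40 to 0.15). Between systems they were Igha (-0.09 to 0.61) and Ighm (-0.55 to 0.09). In spleen they were the Ighg2c cKO step (-0.79 to 0.70), Igha at day 2.5 (-1.09 to 0.16) and day 3.5 (-0.73 to 0.18), Ighm at day 3.5 (-0.16 to 0.39), and the difference between days for Igha (-0.29 to 0.96), Ighg2c (-1.48 to 0.38) and Ighm (-0.45 to 0.10). The Igha to Ighm ratio at CH12F3 day 1.5 was -0.06 to 0.33. Groups of 2 libraries at CH12F3 days 3 and 7 leave 1 library in an arm here, which is assumed to vary like the other groups. Depth limits Ighg2c in CH12F3 and Igha in spleen libraries.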
